A study of Mus musculus with 6 samples.

Results

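The transcription factor genes that direct blood cells into the myeloid lineages were examined in hematopoietic cells emerging in the mouse embryonic aorta. They comprised *Spi1*, which encodes PU.1, the C/EBP genes *Cebpa*, *Cebpb*, *Cebpd* and *Cebpe*, the interferon regulatory factor genes *Irf5* and *Irf8*, and *Maf*, which encodes c-Maf. The 8 genes were picked by symbol for their known roles and not by their measured expression, from 24062 genes with counts. *Cebpe* did not pass the filter on low counts, so 7 of the 8 were among the 12688 genes tested. The cells were sorted from the aorta-gonad-mesonephros region (AGM) of embryos at embryonic day (E) 10.5. All embryos were of strain C57BL/6JOlaHsd and carried the Gata2Venus reporter allele, in which the fluorescent protein Venus is made from the *Gata2* transcript, on 1 of their 2 *Gata2* alleles by the study's methods. Cells positive for CD31 (an endothelial and hematopoietic surface protein) and ckit (the stem cell factor receptor) were split by Venus fluorescence into a medium fraction (Vmed, G2Vi in the labels) and a high fraction (Vhigh, G2Vh in the labels). RNA was sequenced from 3 libraries per fraction, and the comparison asks how cells with medium and with high *Gata2* reporter levels differ. The labels do not say how many embryos were pooled per library, nor that the libraries came from separate animals. The study's figure legends describe its RNA sequencing values as means over 3 independent experiments, without saying which library belongs to which. The p-values here therefore measure the spread between these libraries, which may be partly technical.

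PU.1 is an ETS family factor that myeloid cells need for their development, and its level helps to set whether a progenitor becomes a macrophage, a neutrophil or a lymphoid cell. The C/EBP factors bind DNA as dimers through a basic leucine zipper and act in sequence in granulocytes, with C/EBPα early, C/EBPε late and C/EBPβ and C/EBPδ in inflammatory and emergency responses. IRF8 directs progenitors toward monocytes and dendritic cells, IRF5 drives inflammatory macrophage genes, and c-Maf is a basic leucine zipper factor of tissue macrophages. Yolk sac derived macrophages already populate the embryo around the time that the first stem cells arise in the aorta.

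The libraries held between 8296831 and 12035206 counts on genes, so that 3 counts, taken as the smallest number to be shown, equalled 0.249 to 0.362 CPM (counts scaled to a gene total of 1000000). Such floors, like the count ratios below, cover counting error only, since the reads carry no molecular identifiers. Genes with at least 1 count numbered from 10427 in Vhigh replicate 1 to 18460 in Vhigh replicate 2. Vhigh replicate 1 stood apart from the others. Of 6943 genes at 10 CPM or more in at least 5 libraries, 675 had 3 or fewer counts in Vhigh replicate 1 alone, against 0 to 38 for any other library. *Gata2* itself had 50.3, 29.4 and 68.3 CPM in Vmed replicates 1, 2 and 3 and 39.2, 82.5 and 142 CPM in Vhigh, with overlapping fractions. *Kit*, the gene of ckit, had 64.1, 208 and 59.1 CPM in Vmed and 254.5, 490 and 521 CPM in Vhigh, without overlap. Its log2 fold change, Vhigh over Vmed, was 1.91 (unadjusted p = 0.0090 and adjusted p = 0.9998 by edgeR's quasi-likelihood test). *Pecam1*, the gene of CD31, had at least 118 CPM in every library, with overlapping fractions.

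The 4 C/EBP genes share a stretch of coding sequence, and it sets how well short reads can tell them apart. The sequences below are 60 coding bases each, 5′ to 3′ on the coding strand, from the GENCODE M21 transcripts of GRCm38. They encode most of the basic region through which these factors contact DNA, and capitals mark bases that differ from *Cebpa*. They lie at chr7:35120292-35120351 (+ strand) for *Cebpa*, chr2:167689712-167689771 (+) for *Cebpb*, chr16:15887922-15887981 (+) for *Cebpd* and chr14:54710689-54710748 (- strand) for *Cebpe*, each within the protein coding part of an exon.
Cebpa: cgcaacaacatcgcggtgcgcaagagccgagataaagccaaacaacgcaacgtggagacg
Cebpb: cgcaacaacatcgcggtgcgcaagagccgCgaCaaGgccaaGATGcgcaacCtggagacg
Cebpd: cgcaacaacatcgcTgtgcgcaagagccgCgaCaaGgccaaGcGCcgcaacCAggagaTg
Cebpe: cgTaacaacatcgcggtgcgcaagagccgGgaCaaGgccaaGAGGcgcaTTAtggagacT
In this stretch *Cebpb*, *Cebpd* and *Cebpe* differed from *Cebpa* at 8, 10 and 12 of 60 bases. The longest run of identical bases between any 2 of the 8 members' transcripts, over 28 pairs, was 29 bases, between *Cebpa* and *Cebpb*. *Irf5* and *Irf8* shared at most 19 bases, and the 21 pairs from different families at most 15. All were shorter than the 50-base reads of the study.

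*Cebpa*, *Cebpb* and *Cebpd* each have a single exon, at chr7:35119293-35121928 (+), chr2:167688915-167690418 (+) and chr16:15887286-15891031 (+) of GRCm38. *Spi1* lies at chr2:91082390-91115756 (+), *Cebpe* at chr14:54710360-54712174 (-), *Irf5* at chr6:29526625-29541871 (+), *Irf8* at chr8:120736358-120756694 (+) and *Maf* at chr8:115682942-115707794 (-). Exons of 5 members overlap a gene on the other strand: *Cebpd* shares 562 bases with *Spidr*, *Maf* 440 with *Gm15655*, *Irf5* 411 with *Tnpo3*, *Cebpb* 312 with *Tmem189* and *Cebpa* 51 with *Gm45091*. Strand use in the counting is not given in the sources used here, so reads in those overlaps cannot be assigned to 1 gene and the levels of these 5 genes are uncertain to that extent. *Irf8* lies inside the annotated span of *Gm20388* on the same strand but shares no exon bases with it.

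None of the 7 tested members differed between Vmed and Vhigh at an adjusted p of 0.05. Each had an adjusted p of 0.9998, by edgeR's quasi-likelihood test and the Benjamini-Hochberg procedure over all genes. Of all tested genes, 0 passed (0%), and the lowest adjusted p was 0.664. Unadjusted p was under 0.05 for 0 of 7 members, against 259 of 12688 genes (2.04%). With replicate number as a block in the same test, it was under 0.05 for 1 member (*Maf*), against 528 of all tested genes. After adjustment DESeq2 called 51 genes (0.402%) and edgeR's likelihood ratio test 21 (0.166%), or 74 (0.583%) when replicate number was a block. In each case 0 of the 7 members were called. No member had every Vhigh library above every Vmed library, which was so for 4.15% of tested genes, and none had every Vhigh library below every Vmed library, against 4.71%. By replicate number, *Spi1* and *Cebpb* were higher in Vhigh in 3 of 3 pairs, a pattern of 15.2% of tested genes. *Cebpd*, *Irf5* and *Maf* were lower in Vhigh in 3 of 3 pairs, a pattern of 15.4% of tested genes. With 7 genes these counts are a description, and they were the same with edgeR's TMM and DESeq2's size factor scaling. The median log2 fold change, Vhigh over Vmed, was -0.32 over the 7 members and -0.02 over all tested genes. Without Vhigh replicate 1 the log2 fold change was 1.51 for *Spi1*, 0.62 for *Cebpb*, 0.27 for *Irf8* and -1.285 for *Irf5*, and no member was called after adjustment.

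**Figure D1:**
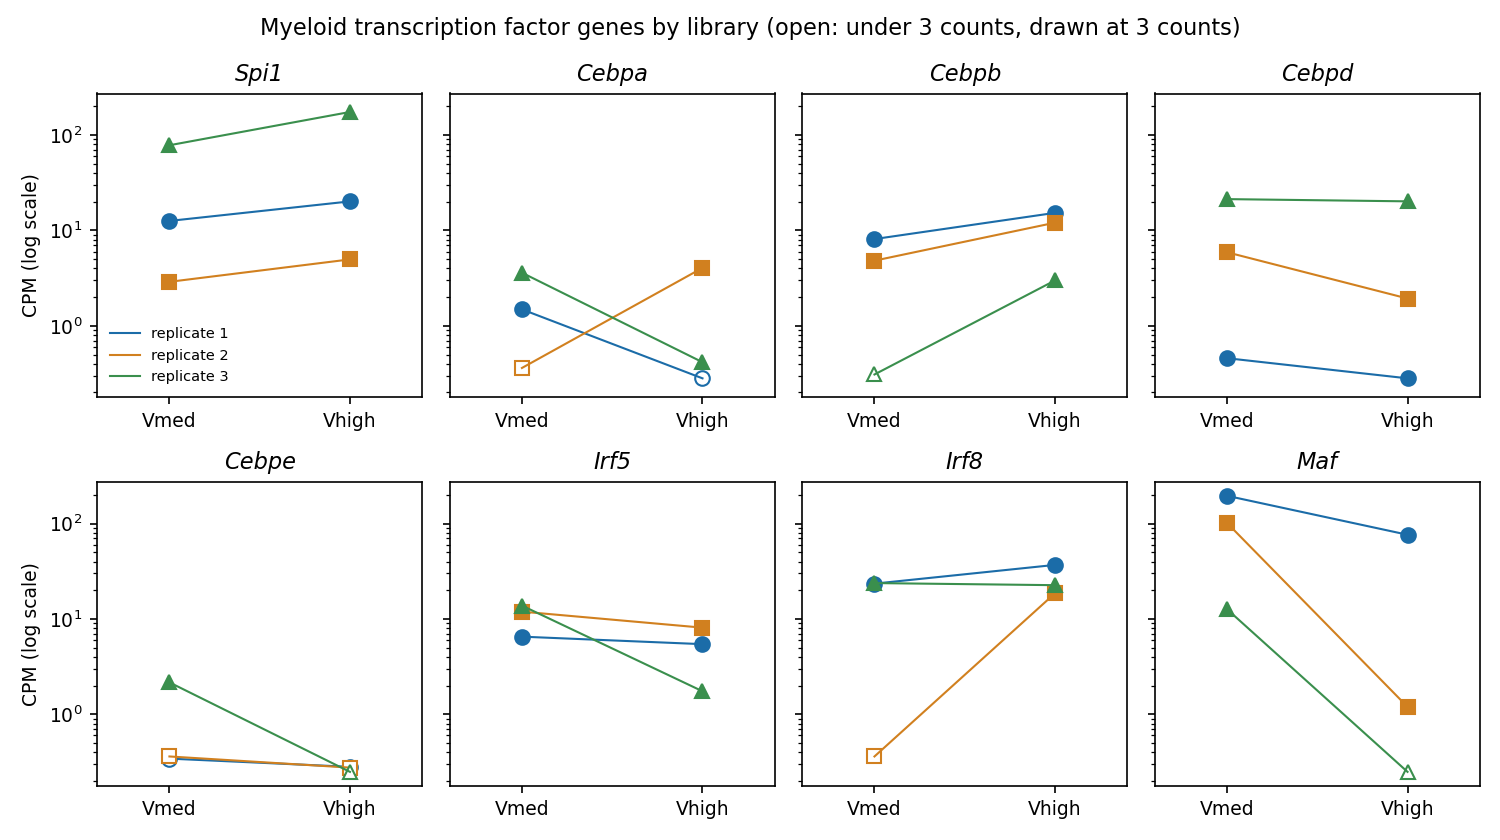
Level of each of the 8 members in CPM on a log axis (1 panel per gene), with lines that join the Vmed and the Vhigh library of the same replicate number. *Spi1* and *Cebpb* rise along all 3 lines and *Maf*, *Irf5* and *Cebpd* descend along all 3, while replicates of 1 fraction lie as far apart as 4.97 and 175 CPM for *Spi1*. Open symbols had under 3 counts and are drawn at 3 counts.

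*Spi1* was higher in Vhigh by a similar ratio in each pair, while its replicates were far apart. Its level was 12.6, 2.89 and 78.2 CPM in Vmed replicates 1, 2 and 3 and 20.2, 4.97 and 175 CPM in Vhigh (31.2 ± 41.0 and 66.6 ± 93.9 CPM, SD, n = 3 each). In both fractions replicate 3 was the highest and replicate 2 the lowest, so the fractions overlapped almost entirely. Within each number Vhigh was above Vmed, by 1.60-fold (95% exact interval of the count ratio 1.27 to 2.04), 1.72-fold (1.04 to 2.91) and 2.23-fold (2.05 to 2.43). The log2 fold change was 1.08 with a standard error (SE) of 1.41 (unadjusted p = 0.46 by edgeR's quasi-likelihood test). Fitted with replicate number as a block, it was 0.84 and its SE 0.62 (unadjusted p = 0.23 by the same test). Permutation of the log2 CPM among the 6 libraries (exact, two-sided) gave p = 0.7, where 3 libraries against 3 allow no p below 0.1. The permutation ignores the replicate numbers, so it does not measure the difference within pairs. Leaving out Vhigh replicate 3 turned the log2 fold change to -1.21, and leaving out Vmed replicate 3 raised it to 3.09.

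Replicate 3 differed from the others in more than *Spi1*. The ribosomal RNA gene *Rn45s* took 10.5% of gene counts in Vmed replicate 3 and 7.47% in Vhigh replicate 3, against 0.887 to 1.53% in the other 4 libraries. Alignments outside annotated features came to 0.184 and 0.158 per gene count in those 2 libraries, against 0.648 to 1.56 in the others. The part of these differences in the *Spi1* values was not tested. *Jun*, whose product c-Jun is a partner of PU.1 on macrophage promoters, was also highest in replicate 3 of both fractions, with 35.1, 10.6 and 416 CPM in Vmed and 24.3, 27.4 and 511 CPM in Vhigh. The 3 tested genes whose pattern over the 6 libraries lay closest to *Spi1* were *Tomm40*, *Uqcrfs1* and *Lmnb1*. Their root mean square difference from it was 0.48 to 0.59 on the log2 CPM scale, after subtracting each gene's mean.

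The C/EBP genes had at most 21.3 CPM in any library, and their replicates were far apart. *Cebpb*, the member of the family used in macrophages and in emergency granulopoiesis, had 8.12, 4.82 and 0.103 CPM in Vmed and 15.3, 12.1 and 2.99 CPM in Vhigh (4.35 ± 4.03 and 10.1 ± 6.38 CPM, SD, n = 3 each). Vhigh was above Vmed in all 3 pairs, by 1.88-fold (1.42 to 2.52), 2.50-fold (1.74 to 3.66) and 29.1-fold. The last ratio rests on 1 count against 36 and has an interval of 4.89 to 1179. The fractions overlapped because Vhigh replicate 3 lay below Vmed replicates 1 and 2. The log2 fold change of *Cebpb* was 1.19 (SE 1.90, unadjusted p = 0.55 by edgeR's quasi-likelihood test) and 2.06 (SE 1.79) with the replicate block. It stayed above 0 with any 1 library left out, at 0.61 to 2.08, and its exact permutation p was 0.4. The closest pattern to *Cebpb* was that of *Rgs18*, a regulator of G protein signaling in hematopoietic cells, at a root mean square difference of 0.31, with 95.2, 90.3 and 5.97 CPM in Vmed and 316, 245 and 46.8 CPM in Vhigh. *Alyref2* and *Mira* followed at 0.36 and 0.37.

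*Cebpd*, induced in acute phase and inflammatory responses, had 0.458, 5.91 and 21.3 CPM in Vmed and 0.281, 1.93 and 20.2 CPM in Vhigh (9.22 ± 10.8 and 7.47 ± 11.0 CPM, SD, n = 3 each). The order of the replicates was the same in both fractions, with number 3 highest. In replicate 2 Vhigh had 0.327 times the Vmed level (0.186 to 0.556), while in replicates 1 and 3 the intervals of the ratio, 0.090 to 3.63 and 0.784 to 1.15, held 1. Its log2 fold change was -0.32 (SE 2.03) and became positive when Vhigh replicate 1 (0.25), Vhigh replicate 2 (0.12) or Vmed replicate 3 (1.28) was left out. Its exact permutation p was 0.7. The genes with the closest patterns were *Vps37b*, *Pigb* and *Cyyr1*, at 0.35 to 0.40.

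*Cebpa*, the factor that takes progenitors into the granulocyte and macrophage lineage, was near the limit of detection. It had 1.49, 0 and 3.60 CPM in Vmed (13, 0 and 35 counts) and 0.0938, 4.05 and 0.415 CPM in Vhigh (1, 44 and 5 counts). The direction differed between the pairs. In replicate 2 the Vhigh level was at least 11.2-fold higher, taking 3 counts as the Vmed floor, while Vmed was higher by 15.9-fold (2.38 to 674) in replicate 1 and by 8.67-fold (3.38 to 28.4) in replicate 3. The log2 fold change was -0.36 (SE 2.39, exact permutation p = 1.0), and -1.69 (SE 2.71) with the replicate block. It became positive without Vhigh replicate 1 (0.18), Vhigh replicate 3 (0.11) or Vmed replicate 3 (0.785). No difference in *Cebpa* was detectable over this spread between replicates. The genes nearest to its pattern were *Dnm1*, *Lpar2* and *Gucy1a2*, at 0.26 to 0.62, which like *Cebpa* had 0 CPM in Vmed replicate 2.

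*Cebpe*, needed for the secondary granules of late neutrophils, had 21 counts (2.16 CPM) in Vmed replicate 3, 2 counts (0.184 CPM) in Vhigh replicate 2 and 0 in the other 4 libraries. In replicate 3 the Vmed level was at least 8.67-fold higher against a floor of 3 counts. Each 0 allows up to 3 counts, or 0.249 to 0.362 CPM. The secondary granule genes that C/EBPε is known to switch on were as sparse, and were named after their values were seen. *Ltf* (lactoferrin) and *Camp* (cathelicidin) reached at most 3.41 and 1.01 CPM, both in Vhigh replicate 2, and were at 0 in the other 4 libraries apart from 1 and 5 counts in Vmed replicate 1. *Ngp* had 14.99 CPM in Vmed replicate 1, 1.84 CPM in Vhigh replicate 2 and 0 elsewhere. None of these 3 genes had a count in Vmed replicate 3, the library with 21 counts of *Cebpe*. All 3 had counts in Vhigh replicate 2 (37, 11 and 20 for *Ltf*, *Camp* and *Ngp*), where *Cebpe* had 2.

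Of the primary granule genes, made earlier in the lineage, *Mpo* and *Prtn3* were detected in every library. *Mpo* (myeloperoxidase) had 272, 493 and 311 CPM in Vmed and 584, 1130 and 748 CPM in Vhigh, with no overlap and a log2 fold change of 1.14 (SE 0.43, unadjusted p = 0.025 and adjusted p = 0.9998 by edgeR's quasi-likelihood test). *Prtn3* (proteinase 3) had 20.3 to 26.9 CPM in Vmed and 62.1 to 133 CPM in Vhigh, a log2 fold change of 2.15 (unadjusted p = 0.011, adjusted p = 0.9998). *Elane* (neutrophil elastase) had 39.4 CPM in Vhigh replicate 1 and at most 2.88 CPM in the other libraries. Of 10 neutrophil granule markers, 9 were among the counted genes, 1 of them (*Ctsg*) at 0 in every library, and 5 passed the filter. The 9 together had a summed level of 335 to 522 CPM in Vmed and 773 to 1271 CPM in Vhigh, most of it *Mpo*. The median log2 fold change of the 5 tested was 1.14, against -0.31 with the replicate block and -2.07 over the 6 tested without Vhigh replicate 1. At an unadjusted p under 0.05, 2 of the 5 were higher and none lower.

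*Irf8* was detected in 5 libraries and had no count in the other. Its level was 23.5, 0 and 23.8 CPM in Vmed and 36.9, 18.6 and 22.6 CPM in Vhigh (15.7 ± 13.6 and 26.0 ± 9.60 CPM, SD, n = 3 each). Apart from Vmed replicate 2, all libraries lay within 18.6 to 36.9 CPM and the fractions overlapped. In replicate 2, 0 counts stood against 202, so that Vhigh was at least 51.4-fold higher. In replicate 1 it was 1.57-fold higher (1.32 to 1.87), and in replicate 3 the ratio was 0.951 (0.795 to 1.14). The log2 fold change was 0.70 (SE 1.66, unadjusted p = 0.68 by edgeR's quasi-likelihood test, exact permutation p = 0.6). Without Vmed replicate 2 it was 0.11, and with the replicate block 1.84 (SE 1.76). Such isolated gaps were rare in Vmed replicate 2: of 6943 genes at 10 CPM or more in at least 5 libraries, 4 had 3 or fewer counts there and at least 10 CPM in each of the others, *Irf8*, *Ocrl*, *Vps37a* and *Zbtb6*. *Vps37a* and *Ocrl* were accordingly the genes nearest to *Irf8* in pattern, at 0.41 and 0.58, followed by *Snx13* at 0.72.

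*Irf5* varied least among the tested members. It had 6.52, 11.9 and 13.8 CPM in Vmed and 5.44, 8.10 and 1.74 CPM in Vhigh (10.7 ± 3.78 and 5.10 ± 3.19 CPM, SD, n = 3 each). Vhigh was lower in all 3 pairs, to 0.834 (0.569 to 1.22), 0.679 (0.504 to 0.914) and 0.127 (0.0758 to 0.201) times the Vmed level. The fractions overlapped, as Vhigh replicate 2 lay above Vmed replicate 1. The log2 fold change was -1.13 (SE 1.64, unadjusted p = 0.51 by edgeR's quasi-likelihood test, exact permutation p = 0.2), -1.25 with the replicate block, and between -1.45 and -0.67 with any 1 library left out. Its SD within a fraction, 0.82 on the log2 scale, was at the 25.9th percentile of tested genes. The closest patterns were those of *Igf2r*, *Scly* and *Kirrel*, at 0.29 to 0.40. *Igf2r*, the receptor that clears IGF2, had 163, 250 and 222 CPM in Vmed and 85.6, 163 and 50.7 CPM in Vhigh.

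**Figure D2:**
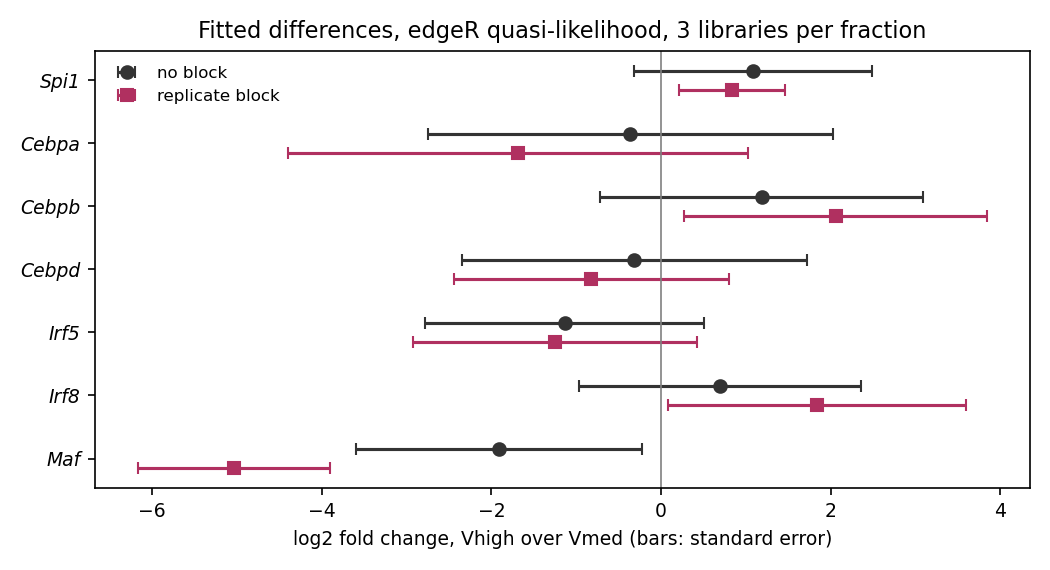
Log2 fold change, Vhigh over Vmed, of the 7 tested members, as points with standard error bars from edgeR's quasi-likelihood fit without (circles) and with (squares) the replicate number as a block. *Maf* moves from -1.91 to -5.04 with the block, and the standard error of *Spi1* shrinks from 1.41 to 0.62.

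*Maf* had the largest log2 fold change of the 7 tested members, with or without the replicate block. It had 196, 102 and 12.7 CPM in Vmed (1709, 843 and 123 counts) and 76.4, 1.20 and 0.0831 CPM in Vhigh (814, 13 and 1 counts), that is 103 ± 91.4 and 25.9 ± 43.7 CPM (SD, n = 3 each). Replicate 1 was highest and replicate 3 lowest in both fractions, and Vhigh replicate 1 lay above Vmed replicate 3, so that the fractions overlapped. Within each pair Vmed was higher, by 2.56-fold (2.35 to 2.79), 84.9-fold (49.4 to 160) and 152-fold, the last with an interval of 26.8 to 6067 because it rests on 1 count in Vhigh.

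The unadjusted call for *Maf* depended on the settings of the fit. The log2 fold change was -1.91 (SE 1.68, unadjusted p = 0.30 by edgeR's quasi-likelihood test, exact permutation p = 0.2). With the replicate number as a block it was -5.04 (SE 1.13, unadjusted p = 0.018 and adjusted p = 0.987 by the same test), so that 1 of the 7 members was lower at an unadjusted p under 0.05, against 300 of 12688 tested genes (2.36%). Under the block, the likelihood ratio test gave an adjusted p of 0.117. Without the filter on low counts and without the block, *Maf* had a log2 fold change of -1.90 and an unadjusted p of 0.039 (adjusted p = 1.000 by the quasi-likelihood test), where 538 of 20033 genes (2.69%) had an unadjusted p under 0.05. Without Vhigh replicate 1, the library that stood apart, the log2 fold change was -7.50 (unadjusted p = 0.00084, adjusted p = 0.50 by the quasi-likelihood test), where 3.12% of 14416 genes had an unadjusted p under 0.05, and without Vmed replicate 1 it was -0.99. *Maf* was lower in Vhigh under all 16 alternatives that were run, and in none did it pass the adjusted threshold.

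The genes whose pattern over the 6 libraries was most like that of *Maf* are all known from macrophages. They were *Ccl2* (root mean square difference 0.64), *Trem2* (0.85) and *Ccl4* (0.89), among 12618 tested genes with a mean of at least 1 CPM. *Ccl2*, which encodes a monocyte attractant, had 118, 38.6 and 12.97 CPM in Vmed and 39.2, 1.84 and 0 CPM in Vhigh. *Trem2*, a lipid-sensing receptor of tissue macrophages and microglia, had 113, 15.1 and 5.76 CPM in Vmed and 31.6, 1.20 and 0 CPM in Vhigh. In both genes, as in *Maf*, replicate 1 was highest and replicate 3 lowest within each fraction. Both were picked for their likeness to *Maf* over these same libraries, so the shared order is no separate result.

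Macrophage markers were also lower in Vhigh than in Vmed. All 14 markers on the list had a log2 fold change below 0, 7 of them at an unadjusted p under 0.05 and 0 after adjustment by edgeR's quasi-likelihood test, with a median of -3.09 against -0.02 over all tested genes, and of -4.74 without Vhigh replicate 1. With the replicate block, 9 were lower at an unadjusted p under 0.05 and still 0 after adjustment by that test, while the likelihood ratio test called 6 after adjustment, among them *C1qb* (adjusted p = 0.00017), *Adgre1* (0.0037) and *Mrc1* (0.0049). Their summed level was 1093 to 2164 CPM in Vmed and 146 to 605 CPM in Vhigh, and did not overlap. *Adgre1* (the F4/80 antigen, listed as *Emr1*) had 60.1, 34.6 and 29.6 CPM in Vmed and 0, 0 and 0.249 CPM in Vhigh, and *C1qb*, a complement subunit secreted by macrophages, had 240 to 686 CPM in Vmed and 92.9, 3.59 and 1.91 CPM in Vhigh. The decrease was uneven, and 12 of the 14 markers were lower in Vhigh in 3 of 3 pairs. *Lyz2* (log2 fold change -0.27, unadjusted p = 0.73) and *Cd14* (-0.42, unadjusted p = 0.86, both by edgeR's quasi-likelihood test) changed least. *Lyz2* had 227, 85.1 and 82.9 CPM in Vmed and 214, 49.2 and 59.4 CPM in Vhigh, with overlapping fractions. Vhigh replicate 1 had the highest Vhigh value of both *Maf* and *C1qb* but no count of *Adgre1*. The part of macrophage content in the *Maf* values was not tested, and in bulk samples fewer cells of a type and less RNA per cell cannot be told apart. *Spi1*, which macrophages also express, was 175 CPM in Vhigh replicate 3, where the sum was 153 CPM, and 12.6 CPM in Vmed replicate 1, where the sum was 2164 CPM. Between replicates 1 and 2 the order was the same, with replicate 1 higher in both fractions for *Spi1* and for the sum. The part of macrophage content in the *Spi1* values was not tested either.

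**Figure D3:**
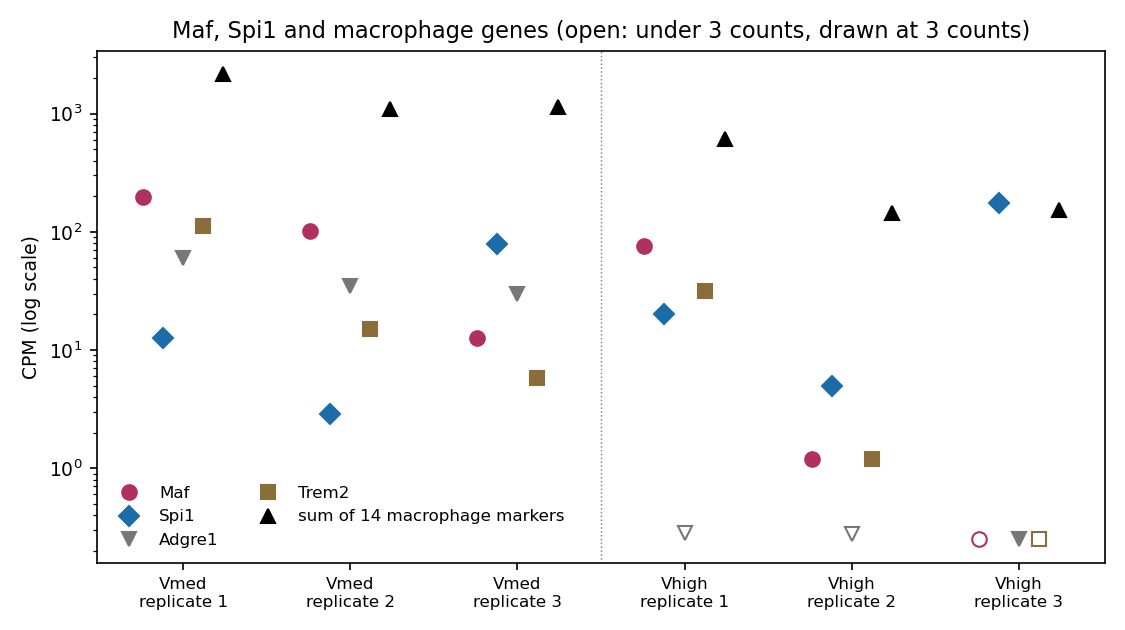
Levels in CPM on a log axis of *Maf*, *Spi1*, *Adgre1*, *Trem2* and the sum of the 14 macrophage markers in each of the 6 libraries. The marker sum lies at 1093 CPM or more in every Vmed library and at 605 CPM or less in every Vhigh library, and *Maf* is at 1.20 CPM or less in Vhigh replicates 2 and 3 where *Spi1* is at 4.97 and 175 CPM. Open symbols had under 3 counts and are drawn at 3 counts.

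Levels can be compared between genes only per length of transcript. As RPKM (CPM divided by exon length in kilobases, from GENCODE M21), *Maf* and *Spi1* led in Vmed with 12.5 ± 11.1 and 11.6 ± 15.2 RPKM (SD, n = 3). *Irf5* (3.70 ± 1.30), *Cebpb* (2.89 ± 2.68), *Cebpd* (2.46 ± 2.89) and *Irf8* (2.23 ± 1.93) followed, and *Cebpa* (0.64 ± 0.69) and *Cebpe* (0.58 ± 1.01) were lowest. In Vhigh *Spi1* led with 24.7 ± 34.8 RPKM, ahead of *Cebpb* (6.73 ± 4.24), *Irf8* (3.69 ± 1.36), *Maf* (3.14 ± 5.31), *Cebpd* (1.99 ± 2.95), *Irf5* (1.75 ± 1.099), *Cebpa* (0.58 ± 0.83) and *Cebpe* (0.049 ± 0.086). No 2 neighbours in either order differed by more than the sum of their SDs. With the length of the longest coding transcript in place of all exons, which shortens *Irf8* and *Maf* most, *Maf* stood at 32.0 RPKM in Vmed and 8.03 RPKM in Vhigh, ahead of *Spi1* (15.4 RPKM) in Vmed and of *Cebpb* (6.73 RPKM) in Vhigh. *Irf8* stood at 5.53 RPKM in Vmed and 9.14 RPKM in Vhigh, above *Irf5* and *Cebpb* in both.

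For most members the replicate number accounted for more of the variation than the fraction did. The number has more levels than the fraction, so it takes a larger share on average even where neither has an effect. Of the sum of squares of log2 CPM over the 6 libraries, the number took 95.8% for *Spi1*, 94.9% for *Cebpd*, 67.7% for *Cebpb*, 50.8% for *Maf* and 50.1% for *Irf8*, against a mean of 53.7% over all tested genes. The fraction took 46.8% for *Irf5*, 39.2% for *Maf*, 23.6% for *Cebpb* and 19.8% for *Irf8*, against a mean of 18.1%. It took 3.88% for *Spi1* and 2.73% for *Cebpd*. For *Cebpa* 91.3% belonged to neither. The SD of *Maf* within a fraction, 3.34 on the log2 scale, exceeded that of 95.2% of tested genes, against a median of 1.52. The members did not share 1 pattern: the closest pair were *Cebpa* and *Irf5*, at a root mean square difference of 1.74, then *Spi1* and *Cebpd* at 2.10, and the farthest were *Cebpd* and *Maf* at 5.06.

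**Figure D4:**
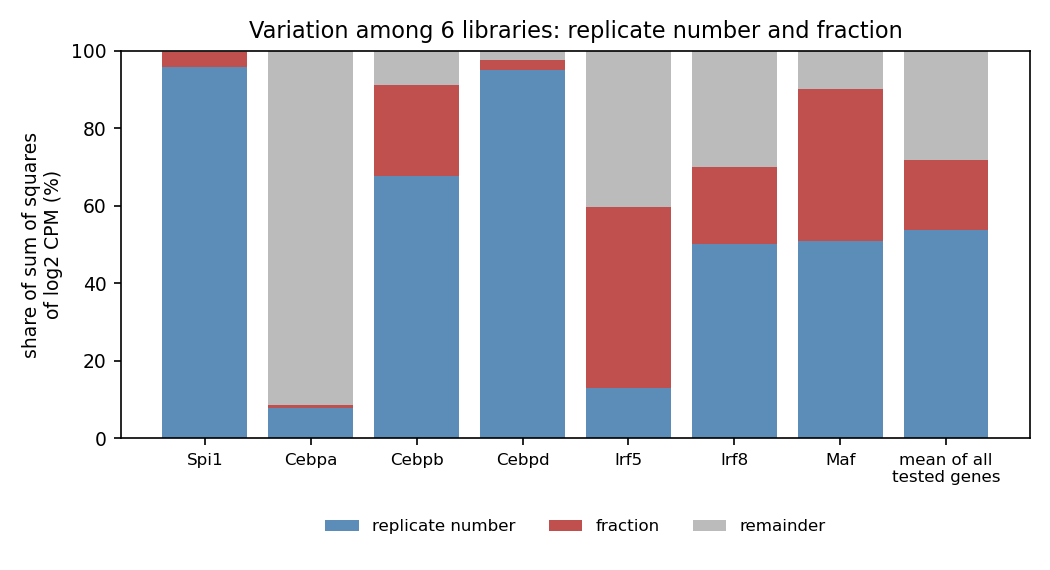
Share of the sum of squares of log2 CPM over 6 libraries, in percent, that goes with replicate number, with fraction and with neither, for the 7 tested members and as the mean of all tested genes. Replicate number takes nearly the whole bar for *Spi1* and *Cebpd*, the fraction takes its largest share for *Irf5* (46.8%), and *Cebpa* is almost all remainder.

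Summed over each family, the fractions overlapped as well. The 4 C/EBP members together had 10.1, 10.7 and 27.2 CPM in Vmed and 15.7, 18.2 and 23.6 CPM in Vhigh. The 2 interferon regulatory factor members had 30.0, 11.9 and 37.6 CPM in Vmed and 42.3, 26.7 and 24.3 CPM in Vhigh. The C/EBP sum was made of different genes in different libraries: *Cebpb* gave most of it in replicate 1 of both fractions, and *Cebpd* in replicate 3 of both.

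Of 18 genes listed as relatives of the members, 14 were tested. By edgeR's quasi-likelihood test, without or with the replicate block, none had an unadjusted p under 0.05. Their log2 fold changes were above 0 for 6 and below 0 for 8, with a median of -0.33, which was -0.01 without Vhigh replicate 1 and -0.91 with the replicate block. *Cebpz*, which carries the C/EBP symbol but encodes a CCAAT-binding protein without the leucine zipper (71.4, 112 and 44.3 CPM in Vmed, 81.1, 196 and 190 CPM in Vhigh), and *Cebpg* (5.15, 37.2 and 28.9 CPM against 20.9, 63.2 and 51.2 CPM) were both higher in Vhigh in 3 of 3 pairs. *Cebpg* encodes a C/EBP protein that lacks an activation domain. *Irf3*, which acts in antiviral signaling, had 20.02 to 59.7 CPM in Vmed and 38.6 to 95.7 CPM in Vhigh. *Spib* and *Mafa* had no count in any library.

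Among 13 partners and antagonists of the members, all tested, 2 were higher and 1 lower at an unadjusted p under 0.05, and 0 passed after adjustment by edgeR's quasi-likelihood test. Under the block, the likelihood ratio test called *Myb* (adjusted p = 0.00026) and *Id2* (adjusted p = 0.021). *Myb*, whose product works with C/EBP factors on promoters of immature myeloid cells, had 1.83, 1.33 and 5.97 CPM in Vmed and 73.3, 199 and 104 CPM in Vhigh. Its log2 fold change of 5.26 (SE 0.81, unadjusted p = 0.00026 by edgeR's quasi-likelihood test) came with an adjusted p of 0.664. That was the smallest value of all genes, shared with the mesenchyme marker *Lum*, which was lower in Vhigh. *Runx1*, an activator of *Spi1*, had 4.58, 30.5 and 31.2 CPM in Vmed and 41.9, 114 and 141 CPM in Vhigh, a log2 fold change of 2.12 (unadjusted p = 0.041). *Id2*, an inhibitor of basic helix-loop-helix factors, had 1330, 296 and 211 CPM in Vmed and 171, 163 and 48.9 CPM in Vhigh, a log2 fold change of -2.32 (unadjusted p = 0.014). *Myb*, *Runx1* and *Id2* did not overlap between the fractions, but they are the genes of the list with an unadjusted p under 0.05, so this is no separate result. *Egr1* did not overlap either, with 79.9, 49.4 and 159 CPM in Vmed and 2.25, 37.4 and 45.2 CPM in Vhigh. Of all tested genes, 4.15% lay wholly higher and 4.71% wholly lower in Vhigh. The list's median log2 fold change was 0.66, and 0.20 to 1.05 under the alternatives.

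Known target genes of PU.1 and the C/EBP factors were split. Of 18, all tested, 7 had a log2 fold change above 0 and 11 below, with a median of -0.16, which ranged from -0.81 without Vhigh replicate 1 to 0.03 without Vhigh replicate 2. At an unadjusted p under 0.05, 2 were higher, *Mpo* among them, and 1 was lower (*Msr1*). *Msr1*, a macrophage scavenger receptor, had 41.9, 25.3 and 4.94 CPM in Vmed and 0.938, 0.184 and 1.41 CPM in Vhigh. The receptor genes differed in direction: *Csf2rb*, the shared receptor chain for GM-CSF and IL-3, had 25.5, 4.82 and 9.88 CPM in Vmed and 171, 41.8 and 12.4 CPM in Vhigh (log2 fold change 2.50, unadjusted p = 0.059 by edgeR's quasi-likelihood test). *Csf1r*, the M-CSF receptor gene and a direct target of PU.1, had 32.1, 101 and 162 CPM in Vmed and 54.4, 29.6 and 31.2 CPM in Vhigh (log2 fold change -1.35, unadjusted p = 0.11 by the same test). *Csf1r* and *Cd68* also count among the macrophage markers, and *Mpo* and *Elane* among the neutrophil ones, so these lists are not independent.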

How the data were processed

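Cells were sorted from E10.5 AGMs, RNA was prepared by the SMARTer protocol, and single reads of 50 bases were aligned by the authors to GRCm38/mm10 with TopHat and Bowtie 1.1.2. The deposited files hold raw counts per gene without normalization, with HTSeq named in the submitters' processing notes. The annotation and strand setting of the counting are not given in the sources used here. Each library was assigned to Vmed or Vhigh and to a replicate number by its label.

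CPM were computed from each library's gene total, without the lines for unassigned alignments. Genes were filtered by filterByExpr, scaled by TMM and tested with edgeR 4.0.16 in R 4.3.3 (quasi-likelihood test, fraction only, Benjamini-Hochberg adjustment at 0.05). A second test of each single gene was the exact permutation, two-sided, over 20 arrangements. Pair ratios carry exact conditional 95% intervals. Log2 CPM used a prior count of 2. RPKM lengths came from GENCODE M21, and the script was tested on simulated data.

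The members and the 11 gene lists, with 124 of their 125 entries among the counted genes, were chosen with earlier results of these data known. Named genes were the members, the 3 nearest patterns to each, and genes from the 4 most abundant and the 2 highest and 2 lowest log2 fold changes of each list. Not every gene that met this rule is named, and *Cbfb* and *Zeb2* are examples. Others named in the text (*Csf1r*, *Ctsg*, *Ltf*, *Camp*, *Ngp*, *Spib* and *Mafa*) were chosen after their values were seen. Some list genes are not reported here. The replicate block was tried because both fractions carry numbers 1 to 3. Deviations of same-numbered libraries from their fraction's mean correlated across genes (r = 0.21, 0.21 and 0.39), so pair ratios and the block are given beside the main fit. The main fit and the permutation do not use the numbers. The correlations of differently numbered libraries lay between -0.29 and -0.006. Subtracting the mean of each fraction pushes them below 0 once same-numbered pairs are positive, so they are no separate support. The labels do not say what a number marks. Alternatives were other scalings, filters and tests (DESeq2 1.42.0, limma 3.58.1), the block, thinning and each library left out. Transcript length for RPKM was added after seeing the data.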

Additional observations from a re-analysis of the deposited data

How the results depend on the processing

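No member passed the adjusted threshold under any alternative, with adjusted p of 0.974 to 1.000 for *Spi1*, *Cebpb*, *Irf5* and *Irf8*, and 0.117 to 1.000 for *Maf*. *Cebpb*, *Irf5*, *Irf8* and *Maf* kept their direction under all 16 alternatives. Leaving out 1 library at a time turned *Spi1* (log2 fold change -1.21 to 3.09), *Cebpa* (-2.72 to 0.785) and *Cebpd* (-3.12 to 1.28). The number of all genes past the threshold was 0 with 259 at an unadjusted p under 0.05, and 0 to 1 with 1 library left out, the 1 without Vhigh replicate 1. It was 37 without the filter on low counts, 21 by the likelihood ratio test and 51 by DESeq2. With the replicate block it was 0 by the quasi-likelihood test and 74 by the likelihood ratio test, none of them a member. By the quasi-likelihood test, genes at an unadjusted p under 0.05 went from 259 to 528 with the block, and those among the 98 tested genes of the lists from 24 to 31. Of these 98, the likelihood ratio test with the block called 17 after adjustment. Among the members the block changed the unadjusted call of *Maf* and no other. The cause of these differences was not tested. *Cebpe* could be fitted only without the filter (log2 fold change -3.51, unadjusted p = 0.38 by the quasi-likelihood test). A 0 allows up to 3 counts, and *Cebpa* and *Cebpe* had 0 counts in 1 and 4 libraries. Whether depth accounts for these was not tested.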

Other observations

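Markers of other cell types that a CD31 and ckit sort could hold were read in the same libraries. Of 9 stem and progenitor genes all had a log2 fold change above 0, 4 at an unadjusted p under 0.05 (edgeR's quasi-likelihood test) and 0 after adjustment, with a median of 1.91. Their summed levels overlapped, at 416 to 952 CPM in Vmed and 910 to 2554 CPM in Vhigh. *Myb*, *Runx1* and *Kit*, which are among these 4, were already given above, so they are no separate result. *Hlf*, a basic leucine zipper factor of blood stem cells, had 0.229, 2.53 and 0.515 CPM in Vmed and 50.7, 73.6 and 41.5 CPM in Vhigh. Of 10 mesenchyme markers 9 were below 0, 6 at an unadjusted p under 0.05, with a median of -2.76 and summed levels of 2173 to 4634 CPM in Vmed and 277 to 652 CPM in Vhigh. Of 12 endothelial markers 11 were below 0, 1 at an unadjusted p under 0.05, with a median of -0.76, which was -1.71 without Vhigh replicate 3 and -0.17 without Vmed replicate 3, and overlapping sums (1274 to 4983 CPM in Vmed, 950.2 to 3590 CPM in Vhigh).

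Of 6 megakaryocyte markers 4 were below 0 (median -1.28), 1 at an unadjusted p under 0.05: *Pf4*, platelet factor 4, had 477, 381 and 150 CPM in Vmed and 132, 18.2 and 12.96 CPM in Vhigh. Of 8 erythroid markers 6 were tested, with 2 above and 4 below 0 and a median of -0.63, which was 0.05 without Vhigh replicate 1. Of 7 mast cell and basophil markers 2 were tested. *Cpa3*, mast cell carboxypeptidase, had 11.1, 3.62 and 0 CPM in Vmed and 137, 23.8 and 11.1 CPM in Vhigh (log2 fold change 3.58, unadjusted p = 0.071 by edgeR's quasi-likelihood test), and *Hdc*, histidine decarboxylase, had 0.469 CPM in Vhigh replicate 1 and 27.7 to 47.9 CPM in the others. No gene of these lists passed after adjustment by edgeR's quasi-likelihood test, without or with the replicate block. With the block, the likelihood ratio test called 3 stem and progenitor genes as higher (*Myb*, *Hlf* and *Kit*), and 6 mesenchyme markers and *Pf4* as lower, after adjustment.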
